A study of Mus musculus with 9 samples.

Results

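The proteasome genes described here were the 45 of 24411 genes in the hippocampal expression tables whose symbol begins with Psma, Psmb, Psmc, Psmd or Psme followed by a digit. They comprised 5 immunoproteasome members (Psmb8, Psmb9, Psmb10, Psme1 and Psme2) and 40 other genes. Of the 40, 14 encode the constitutive 20S core, 17 the 19S regulatory particle and 3 chaperones of 19S assembly. A further pair, Psme3 and Psme4, encodes other activators, and Psma8 and Psmb11 are forms known from testis and thymus. The last 2 matched by symbol only: Psmc3ip encodes a cofactor of meiotic recombination and no subunit, and Psme2b is a copy of Psme2 that the gene annotation tags as a retrogene. Of the 45, 43 averaged log2(10) or more across the 9 mice and entered the test, including all 5 immunoproteasome members and 38 of the 40 others.

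The samples were hippocampi of 9 male C57BL/6J mice, wild type, 3 in each of 3 groups, with 1 library per mouse. In every mouse an AAV9 vector for Egfp, a green fluorescent reporter, with CTG repeats placed in its 3′-UTR had been injected into dorsal CA1 of both sides, and tissue was taken 10 days later. The first group received 300 repeats together with CWG-cPIP at 83 µg/kg (CWG-cPIP-treated CUG300 mice), the second 300 repeats with vehicle (vehicle-treated CUG300 mice) and the third 10 repeats with vehicle (CUG10 mice). CWG-cPIP is a cyclic pyrrole-imidazole polyamide, a DNA minor-groove binder made to recognise CAG/CTG repeats, and was injected in the mixture with the vector. Mice are labelled as 10 weeks old, and by the study's methods they were 9 weeks old at injection. The type of vector and Egfp were thus common to all mice, and 10 repeats stood for the short allele. By the study's methods the viruses with 10 and 300 repeats were packaged from separate plasmids. Repeat length and virus preparation thus cannot be told apart here. No CUG10 group with CWG-cPIP was part of the design, so an action of the compound apart from the long repeat cannot be told apart here. The promoter of the vector is not given in the sources used here, transduced cells were not separated from others, and the transcript of the vector was not analysed here. Comparing vehicle-treated CUG300 with CUG10 mice asks what the long repeat, with its virus preparation, changes. Below, "with the long repeat" names this comparison. Comparing CWG-cPIP-treated with vehicle-treated CUG300 mice asks what the compound changes in the presence of the long repeat.

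Values are regularized logarithms (rlog): counts scaled between libraries, shrunken toward each gene's mean and put on the log2 scale. A difference of 1 on this scale is a factor of 2, and shrinkage makes differences smaller than in the scaled counts. Values are not scaled for gene length, so levels are compared between mice for a gene and never between genes. No counts were used, and the depth of the libraries is unknown. Over the 14867 genes tested, the median rlog value of a mouse lay between 8.43 and 8.54. Neuronal markers, among them Rbfox3, Snap25 and Camk2a, were measured in every mouse, with a sum over 10 genes on the linear scale of 94940 to 115145 in CWG-cPIP-treated CUG300, 77309 to 109306 in vehicle-treated CUG300 and 114001 to 118616 in CUG10 mice.

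The proteasome is the main protease of the cytosol and nucleus. Its barrel, the 20S core, is built of alpha rings (Psma genes) that gate the entrance and beta rings (Psmb genes) that hold the active sites, and the 19S particle (Psmc and Psmd genes) recognises, unfolds and feeds in ubiquitin-tagged proteins. Under interferon, cells replace the active subunits Psmb5, Psmb6 and Psmb7 in newly made barrels by Psmb8, Psmb9 and Psmb10 and produce the PA28 activator of Psme1 and Psme2, which favours peptides that fit class I MHC molecules. In the healthy brain these inducible forms are low and are best known from microglia and from leukocytes that enter the tissue.

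Psmb8 and Psmb9 lie near each other in the MHC region of chromosome 17, among the peptide transporter genes Tap1 and Tap2, and Psme1 and Psme2 are neighbours on chromosome 14. In GRCm38 (GENCODE M21), Psmb8 spans chr17:34197721-34201454 on the plus strand and Psmb9 spans chr17:34181987-34187764 on the minus strand. Psmb10 spans chr8:105935735-105938444 on the minus strand, Psme1 chr14:55578123-55581529 on the plus strand and Psme2 chr14:55587441-55591113 on the minus strand. Exons of Psmb9 overlap those of Tap1, exons of Psme1 those of Emc9 and exons of Psmb8 those of Gm20496, each on the opposite strand. The libraries were made with a directional kit, but whether strand was used in counting is not stated, so reads from such a pair cannot be told apart with certainty.

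Promoters of the members were searched for 3 motifs, on both strands, in RefSeq windows of 300 bases (250 before and 50 after the start site, GRCm38.p6). Windows were found for 38 members, 41 windows in all, of which 6 belonged to the 5 immunoproteasome members. The core of the interferon-stimulated response element (GAAANNGAAA) was in 4 of the 41 windows, those of Psme1, Psmb3, Psmd4 and Psmd9, against 3.44% of all 32851 promoter windows. The gamma-activated site (TTCNNNGAA) was in those of Psmb8 and Psmd2, against 8.3% of all windows. The core of the antioxidant response element (TGACNNNGC), known as the binding site of Nfe2l1 and Nfe2l2, was in those of Psmb5, Psmb6, Psmc6, Psmd9, Psmd12 and Psme4, against 12.4% of all windows. A match is a description of the letters only. Stretches of these windows are shown for Psmb8 and Psme1, the immunoproteasome members with a match, and for Psmb5 and Psmb6, constitutive active subunits with a match. Each holds the 150 bases directly before the RefSeq start site of its window, or for Psme1 30 bases around the match. The match is in capitals, and each is read 5′ to 3′ on the strand of the gene. These start sites differ from the GENCODE gene ends: the stretches of Psmb8 and Psme1 lie inside the spans given above. That of Psmb5 lies partly inside its span (chr14:54614119-54618022).
Psmb8, chr17:34198045-34198194, plus strand: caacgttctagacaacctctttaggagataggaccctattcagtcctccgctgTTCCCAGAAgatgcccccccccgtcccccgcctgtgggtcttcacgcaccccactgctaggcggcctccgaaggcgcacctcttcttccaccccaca
Psme1, chr14:55578488-55578517, plus strand: ggtttcgagctgtgcTTTCGCTTTCccttc
Psmb5, chr14:54617996-54618145, minus strand: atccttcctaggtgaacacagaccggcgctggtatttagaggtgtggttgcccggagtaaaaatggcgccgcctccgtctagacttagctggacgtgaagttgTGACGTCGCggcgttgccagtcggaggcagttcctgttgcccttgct
Psmb6, chr11:70525207-70525356, plus strand: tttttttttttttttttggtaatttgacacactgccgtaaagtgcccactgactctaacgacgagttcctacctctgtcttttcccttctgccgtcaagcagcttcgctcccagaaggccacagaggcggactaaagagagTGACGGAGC
The gamma-activated site of Psmb8 had its first base at position -97 from the RefSeq start site, and the response element of Psme1, read on the other strand, at position 10. The matches of Psmb5 and Psmb6 had their first base at -47 and -9.

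With the long repeat, 4 of the 5 immunoproteasome members rose in vehicle-treated CUG300 against CUG10 mice, by 1.69 to 3.18 on the log2 scale, at an adjusted p under 0.05 in limma. Among all genes tested, 7.37% were called higher and 3.34% lower, and the median log2 difference was -0.01. The median over the 5 members was 1.83, against 0.24 over the 38 other members tested. All 5 members were without overlap between the groups, where 18.2% of all genes were higher without overlap.

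Psmb8, the inducible chymotrypsin-like subunit also known as LMP7, had rlog values of 12.25, 11.27 and 12.10 in vehicle-treated CUG300 mice, against 8.37, 9.34 and 8.36 in CUG10 mice. The lowest CUG300 mouse thus lay above the highest CUG10 mouse, by more than the whole spread of either group. The difference was 3.18 ± 0.55 (SE, n = 3 each), a factor of 9.09 on this scale, with an adjusted p of 0.0218 in limma. Psmb9 (LMP2), which replaces the caspase-like subunit, had 10.14, 9.37 and 9.94 in vehicle-treated CUG300 mice, against 6.74, 7.60 and 6.80 in CUG10 mice. It rose by 2.77 ± 0.50 (SE), a factor of 6.83, with an adjusted p of 0.0222 in limma. The same CUG10 mouse, replicate 2, was the highest of its group in both genes.

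Psme1 and Psme2 encode the alpha and beta chains of PA28, a cap that opens the 20S gate. Psme1 had 11.72, 11.00 and 11.58 in vehicle-treated CUG300 mice, against 9.76, 9.82 and 9.63 in CUG10 mice, a difference of 1.69 ± 0.37 (SE) with an adjusted p of 0.0293 in limma. Psme2 had 11.51, 10.70 and 11.07 in vehicle-treated CUG300 mice, against 9.26, 9.40 and 9.12 in CUG10 mice, a difference of 1.83 ± 0.36 (SE) with an adjusted p of 0.0246 in limma. For both chains the CUG10 mice lay within a narrow band (SD 0.10 and 0.14), and the vehicle-treated CUG300 mice were more spread (SD 0.39 and 0.41). Psmb10 (MECL-1), which replaces the trypsin-like subunit, had 12.24, 11.00 and 11.62 in vehicle-treated CUG300 mice, against 9.90, 10.04 and 9.70 in CUG10 mice. Its groups did not overlap either, but its difference of 1.74 ± 0.48 (SE, 95% interval 0.64 to 2.83) missed the threshold at an adjusted p of 0.0519 in limma. It passed at 0.0474 with quantile scaling and at 0.00638 when only the groups compared were fitted.

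These calls rested on few mice. Without any single CUG10 mouse, and without replicate 3 of the vehicle-treated CUG300 mice, 0 of the 5 members passed the threshold, 2 passed without replicate 1 of the CWG-cPIP-treated CUG300 mice and 3 without replicate 1 of the vehicle-treated CUG300 mice. The sizes moved less: with a mouse left out, the difference of Psmb8 lay between 3.00 and 3.51, that of Psmb9 between 2.61 and 3.05, that of Psme1 between 1.55 and 1.91 and that of Psme2 between 1.62 and 2.03. The adjusted p of Psmb8 reached at most 0.102 in these limma fits.

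**Figure D1:**
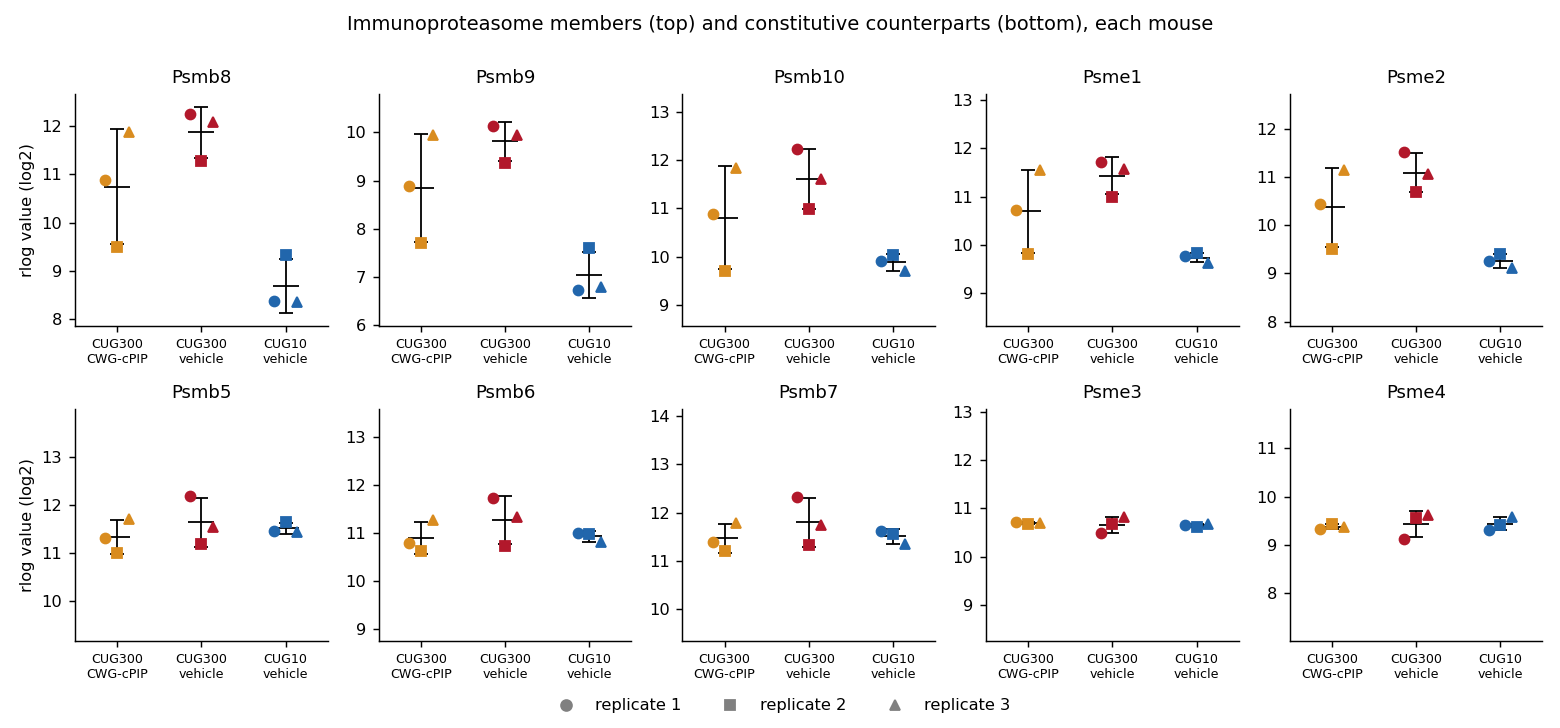
Each panel gives the rlog value (log2 scale, every axis of equal span) of a gene in each mouse of the CWG-cPIP-treated CUG300, vehicle-treated CUG300 and CUG10 groups, with the mean and SD (n = 3 each) as lines and the replicate number as the symbol. In the top row the immunoproteasome members stood apart between vehicle-treated CUG300 and CUG10 mice (Psmb8 11.27 to 12.25 against 8.36 to 9.34), and in the bottom row the groups of Psmb5, Psmb6, Psmb7, Psme3 and Psme4 overlapped.

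Most markers of monocytes, macrophages, T cells and NK cells moved with these genes. Of 10 monocyte and macrophage markers 7 were called higher in vehicle-treated CUG300 against CUG10 mice, and their summed level on the linear scale was 5001 to 7657 in vehicle-treated CUG300 mice, against 682 to 1597 in CUG10 mice. Of 11 T and NK cell markers 8 were called higher, with a summed level of 926 to 1145 in vehicle-treated CUG300 mice, against 220 to 307 in CUG10 mice. Of 10 microglial markers 2 were called higher, Tmem119 by 0.77 and Olfml3 by 0.95. Their summed level was 10478 to 11100 in vehicle-treated CUG300 mice, against 7380 to 9236 in CUG10 mice. Among all genes tested, 7.37% were called higher in this comparison. Neuronal markers moved as well. Of 10, 1 was called lower, the synaptic vesicle protein Syt1, with a log2 difference of -0.51 and an adjusted p of 0.0430 in limma, and 5 were lower without overlap, where 3.34% of all genes were called lower and 16.7% lower without overlap. No marker of these lists was at a single constant value over the mice. In these bulk samples, more cells of a type and more RNA per cell cannot be told apart. The part of all these cells in the rise of the immunoproteasome members was not tested.

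Choroid plexus markers set other libraries apart. The summed level of 10 choroid plexus markers, led by Ttr, the transthyretin that this epithelium secretes, was 1547, 10859 and 31056 in replicates 1, 2 and 3 of the CUG10 mice. In CWG-cPIP-treated CUG300 mice that sum was 1574 to 2030, against 16930 to 64528 in vehicle-treated CUG300 mice. Of the 10 markers, 9 were lower without overlap with CWG-cPIP, where 3.5% of all genes were. In that comparison the compound and the choroid plexus level went together, so they cannot be told apart for the proteasome genes. The part of the choroid plexus level in any difference of these genes was not tested.

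The constitutive active subunits that Psmb8, Psmb9 and Psmb10 replace differed by smaller amounts between vehicle-treated CUG300 and CUG10 mice, and their groups overlapped. Psmb5, the chymotrypsin-like subunit of the standard barrel, had rlog values of 12.19, 11.18 and 11.54 in vehicle-treated CUG300 mice, against 11.47, 11.65 and 11.43 in CUG10 mice. Replicate 1 of the vehicle-treated CUG300 mice was high and replicate 2 was below all CUG10 mice, and the difference of 0.12 had a 95% interval of -0.45 to 0.69. Psmb6, the caspase-like subunit, had 11.73, 10.74 and 11.32 in vehicle-treated CUG300 mice, against 11.00, 10.98 and 10.81 in CUG10 mice, a difference of 0.33 (95% interval -0.21 to 0.88). Psmb7, the trypsin-like subunit, had 12.32, 11.32 and 11.74 in vehicle-treated CUG300 mice, against 11.63, 11.55 and 11.34 in CUG10 mice, a difference of 0.29 (95% interval -0.25 to 0.84). None of the 3 passed, at adjusted p of 0.379 to 0.779 in limma, and each interval ended below the difference of its inducible counterpart. The intervals of Psmb7 and Psmb10 overlapped, since that of Psmb10 began at 0.64. Without replicate 1 of the vehicle-treated CUG300 mice the difference of Psmb5 was -0.16.

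Of the 4 other beta-ring genes, Psmb2 alone passed. It had 10.29, 10.12 and 10.33 in vehicle-treated CUG300 mice, against 9.96, 9.72 and 9.74 in CUG10 mice, and rose by 0.44 ± 0.11 (SE) with an adjusted p of 0.0388 in limma. The groups of Psmb2 did not overlap, but the call was lost with median centering, at an adjusted p of 0.0522, and with only the groups compared, at 0.0507. Psmb3 had 10.78, 10.22 and 10.47 in vehicle-treated CUG300 mice, against 10.16, 10.01 and 9.84 in CUG10 mice, a difference of 0.48 with an adjusted p of 0.088 in limma. The groups of Psmb3 were also apart, by a gap smaller than the spread within either. Psmb1 and Psmb4 differed by 0.29 and 0.38, and their groups overlapped.

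None of the 7 alpha-ring genes passed, although all differed in the same direction, by 0.31 (Psma7) to 0.53 (Psma4). Psma2 had 11.76, 11.08 and 11.32 in vehicle-treated CUG300 mice, against 11.07, 10.87 and 10.73 in CUG10 mice, a difference of 0.49 with an adjusted p of 0.11 in limma. Psma4 had 11.37, 10.72 and 10.87 in vehicle-treated CUG300 mice, against 10.73, 10.39 and 10.25 in CUG10 mice, a difference of 0.53 (95% interval 0.06 to 1.00) with an adjusted p of 0.126 in limma. In both genes the lowest CUG300 mouse and the highest CUG10 mouse were nearly level, so that Psma2 counted as just apart and Psma4 as just overlapping. Over the 14 genes of the 20S core, the median difference was 0.35. Of these genes 1 was called higher and 3 were higher without overlap, shares near the 7.37% and 18.2% of all genes. An unadjusted p under 0.05 in limma was reached by 5, where 16.3% of all genes were higher at that level.

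The 19S particle was flatter still. Its 6 ATPases (Psmc1 to Psmc6), the motor ring that unfolds substrates, differed by 0.05 (Psmc3) to 0.28 (Psmc6), and its 11 non-ATPase genes differed by 0.03 (Psmd2) to 0.29 (Psmd11). Of the 17 genes, 0 were called in limma and 3 had an unadjusted p under 0.05, namely Psmc6, Psmd11 and Psmd12, which were also the 3 without overlap. Both shares are near those of all genes, 16.3% higher at that unadjusted level and 18.2% higher without overlap. The ubiquitin receptor Psmd4 and the deubiquitinase Psmd14, which removes the ubiquitin chain, differed by 0.22 and 0.14. The 3 chaperones of 19S assembly, Psmd5, Psmd9 and Psmd10, differed by -0.05 to 0.15, and all had adjusted p of 0.694 or more.

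The activators outside PA28 alpha and beta did not follow it. Psme3, which encodes the nuclear PA28 gamma, had 10.49, 10.67 and 10.82 in vehicle-treated CUG300 mice, against 10.66, 10.62 and 10.67 in CUG10 mice. Its difference of 0.01 (95% interval -0.20 to 0.23) lay below that of Psme1 or Psme2 with its whole interval, and was -0.064 after median centering. Psme4, which encodes PA200, had 9.13, 9.56 and 9.61 in vehicle-treated CUG300 mice, against 9.32, 9.41 and 9.58 in CUG10 mice, with a 95% interval of -0.31 to 0.31. Replicate 1 of the vehicle-treated CUG300 mice, the highest of its group for the immunoproteasome, was the lowest for Psme3 and Psme4.

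Psme2b had 8.12, 7.41 and 7.78 in vehicle-treated CUG300 mice, against 6.10, 6.48 and 6.10 in CUG10 mice, and rose by 1.54 ± 0.34 (SE) with an adjusted p of 0.0299 in limma. Its value cannot be read apart from that of Psme2. In the annotation, 789 of 794 aligned bases (99.4%) of the transcripts were identical, and 264 of the 688 stretches of 150 bases in Psme2b, the read length, occurred unchanged in Psme2. Psme2 minus Psme2b stayed between 2.92 and 3.39 in all 9 mice, so both moved together, and how reads were shared between them is not known. Its call and that of Psmb2 were lost without any single CUG10 mouse, without replicate 1 or 3 of the vehicle-treated CUG300 mice and without replicate 1 of the CWG-cPIP-treated mice. Psme2b (chr11:48945354-48946190, minus strand) also overlaps 9930111J21Rik1 on the same strand. Psmc3ip had 6.25, 5.78 and 5.57 in vehicle-treated CUG300 mice, against 5.53, 5.48 and 5.39 in CUG10 mice, a difference of 0.40 with an adjusted p of 0.144 in limma. The forms below the minimum stayed near the floor of the scale in all mice, Psma8 at 2.42 to 2.78 and Psmb11 at 2.81 to 3.09.

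**Figure D2:**
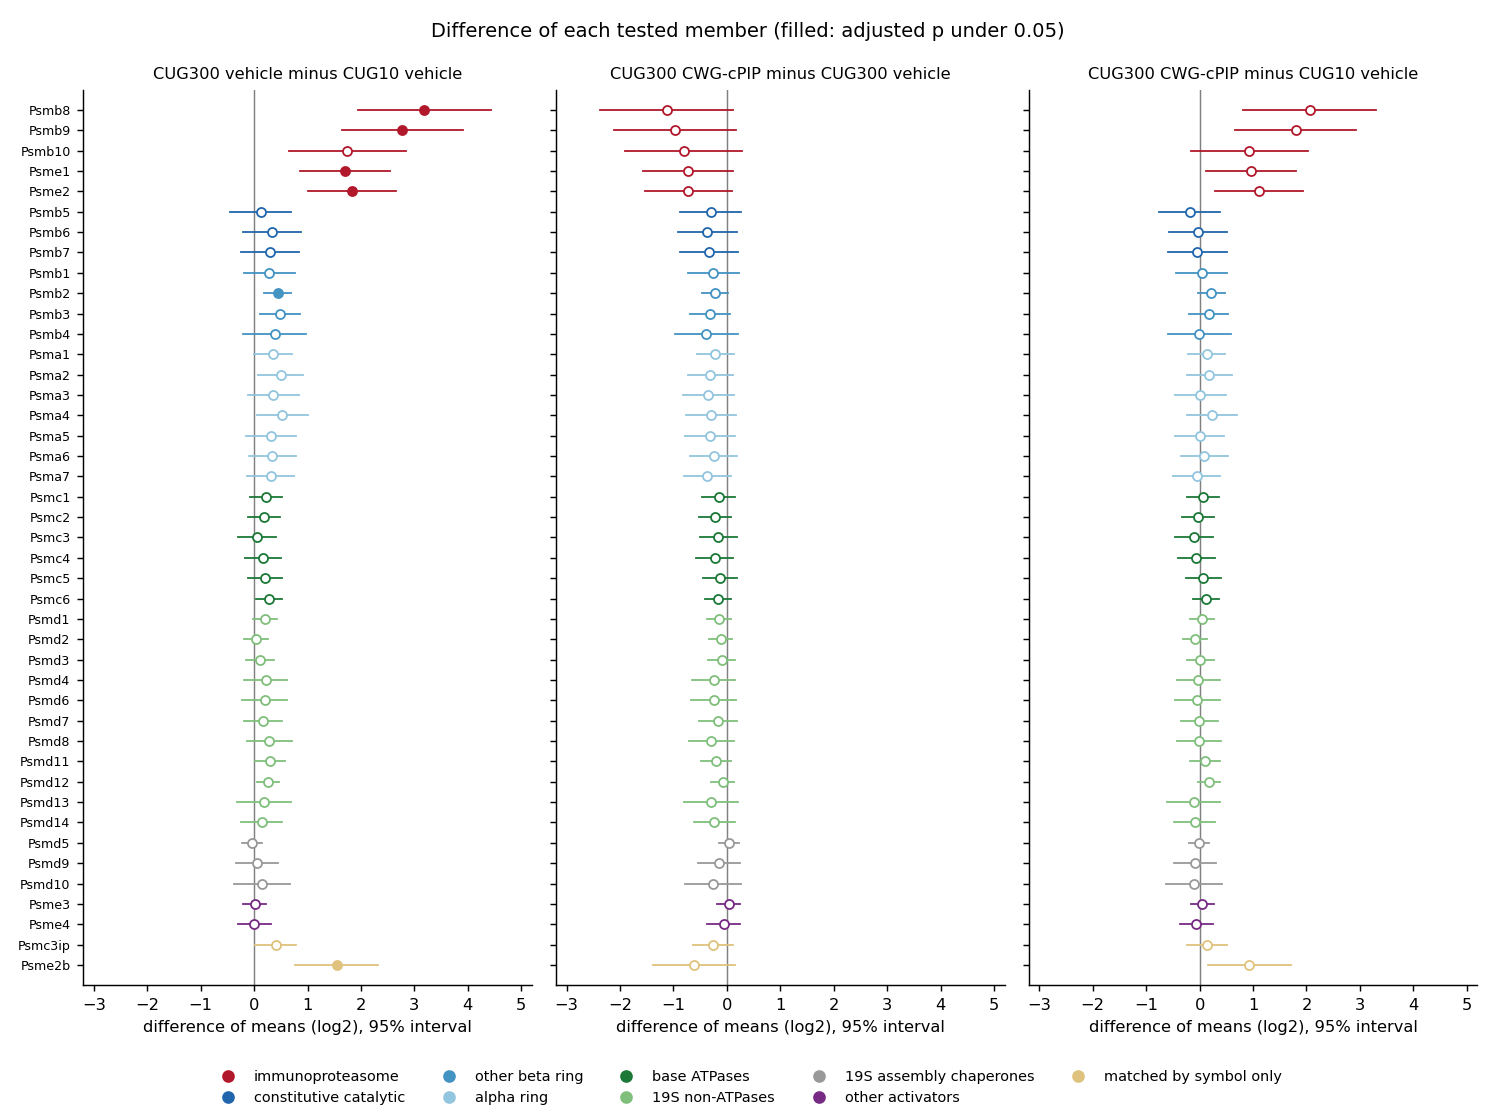
Difference of group means (log2 scale, points) with its 95% interval (lines) for the 43 tested members in each of the 3 comparisons, coloured by role, with filled points at an adjusted p under 0.05 in limma. In vehicle-treated CUG300 against CUG10 mice the filled points are Psmb8 (3.18), Psmb9 (2.77), Psme2 (1.83), Psme1 (1.69), Psme2b (1.54) and Psmb2 (0.44), and the panels for CWG-cPIP hold 0 filled points.

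Within a mouse, the immune members could be set against the core they are built into. The mean rlog value of the 5 immunoproteasome members minus that of the 14 core genes was -0.55, -1.46 and 0.02 in CWG-cPIP-treated CUG300 mice, -0.07, -0.24 and 0.02 in vehicle-treated CUG300 mice and -2.22, -1.67 and -2.05 in CUG10 mice. Only the change of this difference between mice has a meaning, since rlog values are not scaled for length. Its SD was 0.74 in CWG-cPIP-treated CUG300 mice and 0.13 in vehicle-treated CUG300 mice. The vehicle-treated CUG300 mice lay above all CUG10 mice, and the CWG-cPIP-treated CUG300 mice lay in between or level with the vehicle-treated mice, with replicate 2 nearest to the CUG10 mice.

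Each inducible subunit against its own counterpart gave the same picture. Psmb8 minus Psmb5 was -0.42, -1.51 and 0.17 in CWG-cPIP-treated CUG300 mice, 0.06, 0.09 and 0.56 in vehicle-treated CUG300 mice and -3.10, -2.32 and -3.07 in CUG10 mice. Psmb10 minus Psmb7 was -0.51, -1.50 and 0.05 in CWG-cPIP-treated CUG300 mice, -0.08, -0.32 and -0.12 in vehicle-treated CUG300 mice and -1.72, -1.50 and -1.64 in CUG10 mice. Here the groups of vehicle-treated CUG300 and CUG10 mice were well apart for Psmb10 too, the gene whose own difference missed the threshold.

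**Figure D3:**
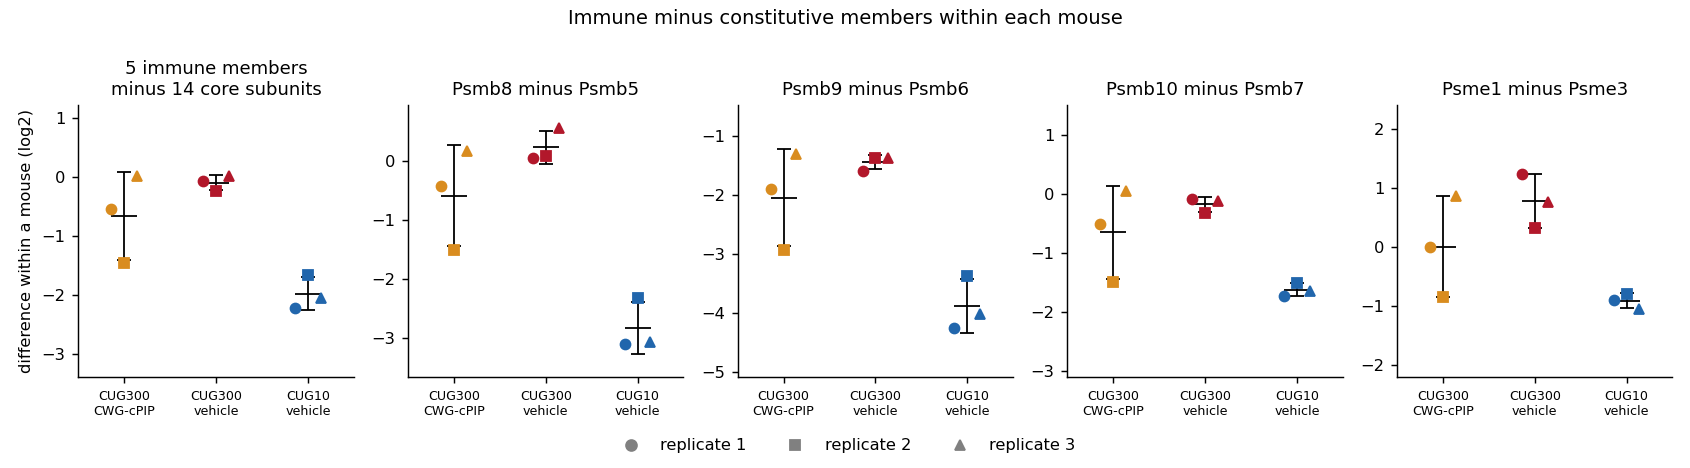
Differences of rlog values (log2 scale) within each mouse between immune and constitutive members, for the mean of 5 immunoproteasome members minus 14 core genes and for 4 gene pairs, with the mean and SD of each group (n = 3) as lines. In every panel the vehicle-treated CUG300 mice lay above the CUG10 mice, and replicate 2 of the CWG-cPIP-treated CUG300 mice was the lowest of its group (-1.46 in the first panel).

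With CWG-cPIP, all 5 immunoproteasome members averaged lower than with vehicle in CUG300 mice, but 0 of them and 0 of the 38 others passed the threshold in limma. Among all 14867 genes, 0% were called in either direction, with a smallest adjusted p of 0.483. At an unadjusted p under 0.05 the count was also 0 of 5 and 0 of 38, where 5.23% of all genes were higher and 3.6% lower. No member was without overlap, where 4.97% of all genes were higher and 3.5% lower without overlap. The median difference was -0.81 over the 5 members and -0.24 over the 38 others.

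Psmb8 had 10.89, 9.49 and 11.87 in CWG-cPIP-treated CUG300 mice, against 12.25, 11.27 and 12.10 in vehicle-treated CUG300 mice. Its difference of -1.12 ± 0.55 (SE) had a 95% interval of -2.37 to 0.12. Replicate 3 lay within the range of the vehicle-treated mice, and replicates 1 and 2 below it. Psmb9 had 8.89, 7.70 and 9.95 in CWG-cPIP-treated CUG300 mice, against 10.14, 9.37 and 9.94 in vehicle-treated CUG300 mice, a difference of -0.97 (95% interval -2.11 to 0.16). Psmb10 had 10.89, 9.71 and 11.84 in CWG-cPIP-treated CUG300 mice, against 12.24, 11.00 and 11.62 in vehicle-treated CUG300 mice, a difference of -0.81 (95% interval -1.90 to 0.29). The pattern over mice was that of Psmb8, with a single treated mouse inside the vehicle range.

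Psme1 had 10.73, 9.82 and 11.55 in CWG-cPIP-treated CUG300 mice, against 11.72, 11.00 and 11.58 in vehicle-treated CUG300 mice, a difference of -0.73 (95% interval -1.58 to 0.11). Psme2 had 10.45, 9.52 and 11.15 in CWG-cPIP-treated CUG300 mice, against 11.51, 10.70 and 11.07 in vehicle-treated CUG300 mice, a difference of -0.72 (95% interval -1.54 to 0.10). For both PA28 chains the intervals allow falls of more than 1.5 as well as no change.

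For the immunoproteasome members the spread among the treated mice was the widest of the 3 groups, and for the core genes that among the vehicle-treated CUG300 mice was. The SD of the 5 immunoproteasome members had a median of 1.07 in CWG-cPIP-treated CUG300 mice, 0.41 in vehicle-treated CUG300 mice and 0.17 in CUG10 mice. In the 14 core genes it was 0.29 in CWG-cPIP-treated CUG300 mice, 0.37 in vehicle-treated CUG300 mice and 0.14 in CUG10 mice. All 5 immunoproteasome members were highest in replicate 3 and lowest in replicate 2 of the treated mice, and so were all 14 core genes. In vehicle-treated CUG300 mice, replicate 1 was highest for 5 of 5 immunoproteasome members and 13 of 14 core genes, and replicate 2 lowest for all of both. In CUG10 mice the order parted: replicate 2 was highest for all 5 immunoproteasome members, and replicate 1 for 13 of the 14 core genes.

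The same treated mice were high and low for the summed markers of monocytes, macrophages, T cells and NK cells. The summed level of the monocyte and macrophage markers was 2498, 1227 and 6894 in replicates 1, 2 and 3 of the CWG-cPIP-treated CUG300 mice, against 5001 to 7657 in vehicle-treated CUG300 mice. That of the T and NK cell markers was 505, 281 and 1293, against 926 to 1145. Not every gene followed the sums. Mrc1 had 5.98, 6.40 and 5.94 and Cd163 had 5.25, 5.39 and 4.81 in replicates 1, 2 and 3 of the treated mice. Both were thus highest in replicate 2, and F13a1 was lowest in replicate 1, at 5.96. The other markers of both lists were lowest in replicate 2 and highest in replicate 3. Of these lists 0 of 10 and 0 of 11 genes were called with CWG-cPIP, where 0% of all genes were called. Of the microglial markers 0 of 10 were called. Their sum was 8815 to 10025 in CWG-cPIP-treated CUG300 mice, against 10478 to 11100 in vehicle-treated CUG300 mice. The part of these cells in the spread was not tested.

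The constitutive members were lower by smaller amounts. All 14 core genes averaged lower with CWG-cPIP, by -0.39 (Psmb4) to -0.22 (Psma1), as did all 17 genes of the 19S particle, by -0.30 (Psmd13) to -0.08 (Psmd12). Psmb5 had 11.31, 11.00 and 11.70 in CWG-cPIP-treated CUG300 mice, against 12.19, 11.18 and 11.54 in vehicle-treated CUG300 mice, a difference of -0.30 (95% interval -0.88 to 0.27). Psmb6 had 10.79, 10.64 and 11.26 in CWG-cPIP-treated CUG300 mice, a difference of -0.37, and Psmb7 had 11.40, 11.21 and 11.79, a difference of -0.33. Psme3 had 10.73, 10.67 and 10.69 in CWG-cPIP-treated CUG300 mice and Psme4 had 9.32, 9.44 and 9.37, differences of 0.03 and -0.06 with groups that overlapped. The high replicate 1 of the vehicle-treated CUG300 mice entered all of these core differences: its core mean was 11.64, against 10.91 and 11.24 in the other vehicle-treated CUG300 mice.

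Set against CUG10 mice, the CWG-cPIP-treated CUG300 mice kept higher averages of the immunoproteasome, although 0 of 5 members and 0 of 38 others passed in limma and 0% of all genes were called (smallest adjusted p 0.0879). At an unadjusted p under 0.05, 4 of the 5 were higher and 0 lower, where 8.12% of all genes were higher and 5.31% lower, and 3 of the 5 (Psmb8, Psmb9 and Psme2) were higher without overlap, where 13.4% of all genes were. The difference was 2.06 (95% interval 0.81 to 3.31) for Psmb8, 1.80 (0.67 to 2.94) for Psmb9, 0.93 (-0.16 to 2.03) for Psmb10, 0.96 (0.12 to 1.80) for Psme1 and 1.11 (0.29 to 1.93) for Psme2. Adjusted p ranged from 0.189 to 0.445 in limma. The median over the 38 other members was -0.0023, with 18 above and 20 below 0, and of these Psme2b alone had an unadjusted p under 0.05, with a difference of 0.93.

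Replicate 2 of the treated mice decided these calls. Its Psmb10 of 9.71 and Psme1 of 9.82 lay within the CUG10 ranges. Its Psmb8, Psmb9 and Psme2 lay just above the highest CUG10 mouse, at 9.49 against 9.34, 7.70 against 7.60 and 9.52 against 9.40. Its Psmb8 was 0.80 above the CUG10 mean, while that of replicate 3 at 11.87 was 3.18 above it. Without replicate 2, 4 of the 5 members and Psme2b passed, with differences of 2.69 for Psmb8 (adjusted p 0.00943 in limma), 2.37 for Psmb9, 1.54 for Psme2 and 1.40 for Psme1. The 3 comparisons share groups of mice, so their values, given side by side, are not independent.

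**Figure D4:**
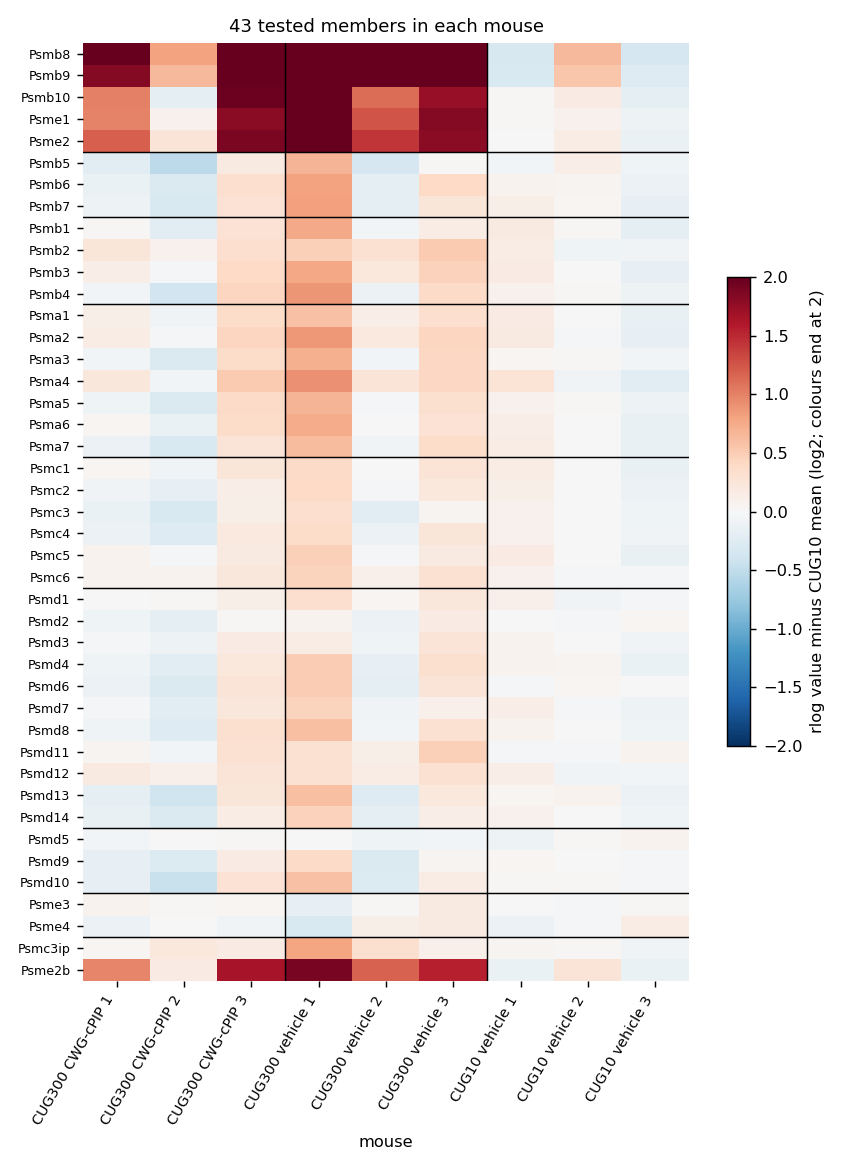
Rlog value of each tested member (rows, grouped by role) in each mouse (columns, from CWG-cPIP-treated CUG300 on the left to CUG10 on the right) minus the mean of the CUG10 mice, on the log2 scale, with colours that end at 2. The top 5 rows and Psme2b are red in the vehicle-treated CUG300 mice and in replicates 1 and 3 of the CWG-cPIP-treated mice, pale in replicate 2 apart from Psmb8 (0.80) and Psmb9 (0.65), and the remaining rows stay pale apart from replicate 1 of the vehicle-treated CUG300 mice.

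The members moved together from mouse to mouse. After subtraction of group means, Pearson's r over the 9 mice was 0.94 to 1.00 between the 5 immunoproteasome members (median 0.95 over 10 pairs) and 0.54 to 1.00 between the 14 core genes (median 0.95 over 91 pairs). Between the immunoproteasome and the core it was 0.51 to 0.93 (median 0.80 over 70 pairs). The SD of the immunoproteasome mean was 1.01 in CWG-cPIP-treated CUG300, 0.46 in vehicle-treated CUG300 and 0.28 in CUG10 mice. The r between its members thus rests mostly on the treated mice. These are descriptions over values from the same libraries and the same scaling. Outside the family, r to the mean of the 5 members over the 9 mice was taken without subtraction of group means. It thus holds the differences between groups and cannot be set against the values above. The genes most like that mean were Fas (r = 0.997), a death receptor, and Nmi and Ifi35 (0.995 and 0.994), partner proteins induced by interferon. Apol9a (0.995) and the class I gene H2-T23 (0.994) were the others. Fas had 7.09, 6.38 and 7.52 in CWG-cPIP-treated CUG300 mice, 7.82, 7.29 and 7.67 in vehicle-treated CUG300 mice and 6.15, 6.48 and 6.08 in CUG10 mice. As in the immunoproteasome mean, replicate 2 of the treated mice was the lowest of the CUG300 mice and replicate 2 the highest of the CUG10 mice, but the full order over the 9 mice was not the same.

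Genes that assemble or regulate the proteasome mostly did not move with it. Of 27 such genes, 2 were called higher in vehicle-treated CUG300 against CUG10 mice and 0 lower, a share near the 7.37% of all genes called higher, with a median difference of 0.04. Without overlap between the groups were 4 higher and 6 lower, where 18.2% of all genes were higher and 16.7% lower. Psmg4, a chaperone of 20S assembly, had 7.61, 7.34 and 7.38 in vehicle-treated CUG300 mice, against 6.89, 6.72 and 6.52 in CUG10 mice, and rose by 0.74 with an adjusted p of 0.0222 in limma. Nfe2l2, the transcription factor of the oxidative stress response, which also acts on proteasome genes, had 9.85, 9.94 and 9.90 in vehicle-treated CUG300 mice, against 8.90, 9.04 and 8.82 in CUG10 mice, and rose by 0.97 with an adjusted p of 0.0234 in limma. Both groups were tight and apart in these genes, and both calls were lost without any single CUG10 mouse, without replicate 3 of the vehicle-treated CUG300 mice or without replicate 1 of the CWG-cPIP-treated mice. Nfe2l1, the factor known for the rebound of subunit genes after proteasome inhibition, differed by -0.24 and was not called, and Pomp, the maturation factor that the immune barrel also needs, differed by 0.36 and was not called.

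Ubd, which encodes FAT10, an interferon-induced tag that targets proteins to the proteasome, had 5.44, 5.34 and 5.03 in vehicle-treated CUG300 mice, against 3.92, 4.54 and 3.97 in CUG10 mice. Its difference of 1.13 missed the threshold at an adjusted p of 0.0663 in limma and passed at 0.00814 when only the groups compared were fitted. With CWG-cPIP, 0 of the 27 genes were called against vehicle, where 0% of all genes were called. Without overlap between those groups were 1 lower gene, Psmg4, and 2 higher genes, Usp14 and Ubqln4, named after their values were seen, where 3.5% of all genes were lower and 4.97% higher. Psmg4 had 7.13, 7.11 and 7.27 in CWG-cPIP-treated CUG300 mice, and Nfe2l2 had 9.68, 9.07 and 9.88.

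Genes that carry proteasome products to the cell surface behaved like the immune members. Of 12 genes of class I peptide supply, 9 were called higher in vehicle-treated CUG300 against CUG10 mice, where 7.37% of all genes were. The median difference was 2.16 over the 12. Tap1, which pumps peptides into the endoplasmic reticulum, had 11.39, 11.30 and 11.79 in vehicle-treated CUG300 mice, against 8.22, 9.20 and 8.56 in CUG10 mice, a difference of 2.83 with an adjusted p of 0.0207 in limma. Nlrc5, the transactivator of class I genes, had 9.11, 9.56 and 9.74 in vehicle-treated CUG300 mice, against 6.24, 7.39 and 6.68 in CUG10 mice, a difference of 2.69 with an adjusted p of 0.0207 in limma. As in Psmb8 and Psmb9, replicate 2 was the highest of the CUG10 mice for both.

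The class I heavy chains H2-K1 and H2-D1 rose by 2.65 and 2.07, the light chain B2m by 2.25, the second transporter chain Tap2 by 2.27, the loading factors Tapbp and Tapbpl by 2.24 and 1.49, and the trimming peptidase Erap1 by 1.296. The general folding helpers Calr, Pdia3 and Canx, which class I molecules share with other proteins, differed by 0.35, 0.43 and 0.05 and were not called. Without any single CUG10 mouse or replicate 3 of the vehicle-treated CUG300 mice, 0 of the 12 were called. With CWG-cPIP, 0 of the 12 were called against vehicle, where 0% of all genes were called, and the median difference was -0.68. The groups overlapped for every gene, where 4.97% of all genes were higher and 3.5% lower without overlap. Tap1 then had 10.88, 9.65 and 11.58 in CWG-cPIP-treated CUG300 mice, again lowest in replicate 2.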

How the data were processed

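Total RNA of hippocampus was sequenced as paired-end reads of 150 nt from directional libraries, 1 per mouse, 3 mice in each of 3 groups taken from the labels. Per the study's methods and the submitters' processing notes, the authors ran Trim Galore 0.6.6, then STAR 2.7.9a and RSEM 1.3.3 with GRCm38/mm10. They deposited rlog values on the log2 scale, made with DESeq2 1.36.0. The annotation, the rlog options and the use of strand were not given in the sources used here.

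Genes averaging log2(10) or more across mice, 14867 of 24411, were tested with limma 3.58.1 in R 4.3.3: 1 mean per group over all 9 mice, a variance trend, and Benjamini-Hochberg adjustment over all genes within each of 3 comparisons, with a call at an adjusted p under 0.05. The procedure was tested on simulated data. P-values measure the spread between mice of 1 experiment. Linear sums of marker lists add 2 raised to the rlog value. Alternatives were another scaling, filter, variance model, threshold or set of groups, the replicate number as a block, and each mouse left out.

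Members and lists were chosen with earlier results of these data known. Genes named with values per mouse were the 5 immunoproteasome members, the counterparts Psmb5, Psmb6, Psmb7, Psme3 and Psme4, the 5 other members with the largest difference with the long repeat and other called members. To these were added members below the minimum, called genes and the 4 largest differences of each pathway list, and the 5 genes most like the immunoproteasome mean by Pearson's r. Nfe2l1, Pomp, Calr, Pdia3, Canx, Psmd4, Psmd14, Usp14, Ubqln4 and the cell type markers named singly were chosen after their values were seen. A gene that this rule names is not reported here. Protein sequences were not used here.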

Additional observations from a re-analysis of the deposited data

How the results depend on the processing

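The medians of the immunoproteasome and of the other members were compared under other scalings, filters and sets of groups, with or without the replicate block. In all 3 comparisons they moved by less than the SD between mice of the immunoproteasome or core mean. With the long repeat, the median of the others went from 0.24 to 0.16 with median centering. That of the others in treated against CUG10 mice, -0.0023, was too near 0 to have a direction. With the long repeat, 4 or 5 of the 5 immunoproteasome members were called under all 9 settings that kept every mouse, Psmb10 being the one that came and went (called with quantile scaling, with only the groups compared and with the replicate block, at adjusted p of 0.0474, 0.00638 and 0.0478 in limma, and at the threshold of 0.1). Of the 38 others, 1 was called with median centering and 1 with only the groups compared, in place of 2, since Psmb2 was lost in each, and Psme3 turned to -0.064 with median centering. The cause of these changes was not tested. With a mouse left out, 0 to 5 immunoproteasome members, 0 to 5 other members, 0 to 4 assembly genes and 0 to 11 class I genes were called with the long repeat. In that setting Psma2, Psmb3 and Psmc6 joined Psmb2 and Psme2b without replicate 2 of the vehicle-treated CUG300 mice, and 0 of the 38 passed without any single CUG10 mouse, without replicate 1 or 3 of the vehicle-treated CUG300 mice or without replicate 1 of the treated mice. With CWG-cPIP against CUG10 mice, 0 to 4 immunoproteasome members and 0 to 1 others were called, the upper counts without replicate 2 of the treated mice, and with CWG-cPIP against vehicle 0 were called under every setting. Differences near 0 turned round with a mouse left out: that of Psmb5 ranged from -0.16 (without replicate 1 of the vehicle-treated CUG300 mice) to 0.35, that of Psme3 from -0.069 (without replicate 3 of those mice; also below 0, at -0.00367, without replicate 2 of the CUG10 mice) to 0.10, and that of Psme4 from -0.090 to 0.15 (without replicate 1 of the vehicle-treated CUG300 mice; also above 0, at 0.070, without replicate 3 of the CUG10 mice). Leaving out a mouse leaves 5 residual degrees of freedom among 8 mice. Deviations of mice with the same replicate number correlated at -0.50 to 0.41. Deviations from a mean of 3 mice are tied to each other, so these values cannot decide whether the numbers pair the mice. The replicate block moved the immunoproteasome calls with the long repeat to 5 and left those of the other members at 2.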
